A study of Homo sapiens with 36 samples.

Results

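The miR-181 family is described here by 3 mature miRNAs, hsa-miR-181a-5p, hsa-miR-181b-5p and hsa-miR-181c-5p, which were taken by name from 7 small RNA sequencing tables. These tables list 509 miRNA names in all, 205 of them in every table, and the 3 members were among the 205. The study asked how an extra chromosome alters the miRNAs of human cells, and it sequenced 36 small RNA libraries in 12 groups of 3. The values used here are the authors' mean of each miRNA in a table, which pools the 3 libraries of 1 aneuploid line with the 3 of its control and is each library's count over its size factor, averaged over the 6 libraries.

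HCT116 cells come from a colorectal carcinoma, and RPE1 cells are retinal pigment epithelial cells kept dividing by telomerase (hTERT). An asterisk marks cells that carry the histone H2B fused to GFP, and c with a number marks a clone grown from a single cell. The 4 HCT116 tables hold HCT116 5/4 (4 copies of chromosome 5) with HCT116, and HCT116 18/3 c2, HCT116* 3/3 c11 and HCT116* 8/3 c7 (3 copies of chromosomes 18, 3 and 8) with HCT116*. By the labels, which name the control libraries of every line, the last 3 of these tables share their 3 control libraries. HCT116 18/3 c2 has no H2B-GFP by its name, and the study's methods derive it from HCT116, whereas the labels give HCT116* as its control. The 3 RPE1 tables hold RPE1 5/3 12/3 (3 copies each of chromosomes 5 and 12) with RPE1, RPE1* 21/3 with the RPE1* libraries numbered 1 to 3, and RPE1* 7/3 with those numbered 11 to 13. By the study's methods the lines were made by transfer of single chromosomes, except HCT116 5/4, which came from another laboratory, and chromosome 12 of RPE1 5/3 12/3 and chromosomes 9 and 12 of RPE1* 7/3 were gained spontaneously.

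miRNAs are short RNAs that guide Argonaute proteins to messenger RNAs, mostly through pairing of the seed near their 5′ end, and thereby lower the output of the target. The miR-181 family is best known from blood cells, where miR-181a is abundant in thymocytes, tunes the sensitivity of the T cell receptor and favours B cell differentiation. It is also found in many solid tissues and in cell lines of epithelial origin.

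The mature sequences are printed because they show what the members share and how little sets them apart. They are from RefSeq, 5′ to 3′, with the seed (bases 2 to 8) in capitals, and hsa-miR-181d-5p, listed in the tables as hsa-miR-181d, is added as the closest relative.

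hsa-miR-181a-5p: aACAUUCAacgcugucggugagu
hsa-miR-181b-5p: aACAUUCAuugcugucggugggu
hsa-miR-181c-5p: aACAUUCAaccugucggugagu
hsa-miR-181d-5p: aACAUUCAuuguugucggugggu

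All 4 carry the seed ACAUUCA, which is found in 5 of 2370 mature human miRNAs in the RefSeq table, and the fifth, hsa-miR-4262, was not listed in any of the 7 tables. With positions counted from the 5′ end, hsa-miR-181b-5p differs from hsa-miR-181a-5p by A9U, C10U and A21G, all outside the seed. hsa-miR-181c-5p is 22 bases long against 23 for hsa-miR-181a-5p, shares its first 10 and last 12 bases, and is 1 base removed from it. hsa-miR-181d-5p differs from hsa-miR-181b-5p by C12U alone. How reads that match more than 1 of these closely related sequences were shared out is not given in the sources used here, so small values of hsa-miR-181c-5p beside a far more abundant relative carry that uncertainty.

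The members are encoded at 5 loci on 3 chromosomes, in pairs (GRCh37, the build of the authors' mapping, with GENCODE 44 annotation). MIR181A1 (chr1:198828173-198828282) and MIR181B1 (chr1:198828002-198828111) lie on the minus strand, 61 bases apart, in an intron of the long non-coding RNA MIR181A1HG. MIR181A2 (chr9:127454721-127454830) and MIR181B2 (chr9:127455989-127456077) lie on the plus strand, 1158 bases apart, in an intron of the long non-coding RNA MIR181A2HG and within an intron of NR6A1, a nuclear receptor gene on the opposite strand. MIR181C (chr19:13985513-13985622) lies on the plus strand in an intron of NANOS3, which encodes an RNA-binding protein of germ cells, 66 bases from MIR181D (chr19:13985689-13985825). The chromosome 1 and chromosome 9 copies give the same mature hsa-miR-181a-5p and the same hsa-miR-181b-5p, so the tables hold their sums. Of the 7 chromosomes that the line names give as gained, 0 carry a miR-181 locus, whereas the spontaneously gained chromosome 9 of RPE1* 7/3 carries MIR181A2 and MIR181B2.

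Levels below are ppm (parts in 1000000) of the summed mean of a table, a scale chosen because the tables were normalized separately. The mean pools all libraries of a table and the authors' own comparisons were not used, so there is no error between replicates, no test and no p-value for any level, and values set across tables are descriptions. The summed mean ran from 5556870 in HCT116 5/4 to 11221232 in RPE1* 7/3, and the depth of the single libraries is unknown. A few miRNAs fill the tables, since the 10 most abundant held 88.9% to 94.6% of the summed mean, led by hsa-miR-21-5p in 6 tables (39.3% to 49.2%) and by hsa-miR-100-5p in RPE1* 7/3 (42.1%). Of the 509 names listed, 333 end in 5p and only 12 in 3p. Levels, shares and ranks are therefore those among the listed names, not among all miRNAs of the cells. The cell type labels were checked against marker miRNAs. The retinal pigment epithelium markers hsa-miR-204-5p and hsa-miR-211-5p summed to 380 to 1452 ppm in the RPE1 tables and 3.3 to 4.50 ppm in the HCT116 tables. Nearly all of this was hsa-miR-204-5p, as hsa-miR-211-5p was listed in 2 RPE1 tables and 1 HCT116 table, at no more than 1.98 ppm. Of 8 intestinal epithelium miRNAs, 7 were listed, with a sum of 2018 to 3155 ppm in the HCT116 tables and at most 251 ppm in the RPE1 tables. hsa-miR-200a-5p alone stood at 1138 to 2544 ppm in the HCT116 tables. hsa-miR-194-5p (medians of 18.9 ppm in HCT116 and 19.6 ppm in RPE1) and hsa-miR-215 overlapped between the cell types. The other listed ones were higher in, or listed only in, the HCT116 tables. For blood cells, 2 of 5 markers were listed, at 2.21 to 38.6 ppm in the HCT116 tables and in 0 of the 3 RPE1 tables, and stromal markers (4 of 5 listed) summed to 168 to 305 ppm and 9.01 to 114 ppm. The stromal sums were mostly hsa-miR-145-5p (144 to 265 ppm and 7.98 to 100 ppm). hsa-miR-143-5p instead had the higher median in RPE1, 6.91 against 1.01 ppm.

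hsa-miR-181a-5p was the most abundant member in every table, and its level was higher in the RPE1 than in the HCT116 tables. In the HCT116 tables it stood at 1330 ppm in 18/3 c2, 1664 ppm in 5/4, 2227 ppm in 3/3 c11 and 1142 ppm in 8/3 c7. In the RPE1 tables it stood at 5905 ppm in 5/3 12/3, 7211 ppm in 21/3 and 3607 ppm in 7/3. All 3 RPE1 tables were thus above all 4 HCT116 tables, and the nearest tables, HCT116* 3/3 c11 and RPE1* 7/3, were 1.62-fold apart. The authors' means behind these levels ran from 8951 to 19921 in the HCT116 tables and from 40471 to 58094 in the RPE1 tables. By rank among the listed miRNAs, hsa-miR-181a-5p was number 10, 10 and 14 in the RPE1 tables and between 23 and 30 in the HCT116 tables. Its median level was 5905 ppm in RPE1 and 1497 ppm in HCT116, a log2 difference of 1.98 (3.94-fold). Whether more RNA per cell or more cells with this miRNA lay behind a level cannot be told apart in bulk libraries.

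hsa-miR-181b-5p, encoded beside hsa-miR-181a-5p on both chromosomes, took the same order of cell types at a lower level. It stood at 331 ppm in HCT116 18/3 c2, 335 ppm in HCT116 5/4, 607 ppm in HCT116* 3/3 c11 and 340 ppm in HCT116* 8/3 c7. On this scale 3 of the 4 HCT116 tables were within 1.03-fold of each other and 3/3 c11 stood above them. In authors' means, hsa-miR-181b-5p was less even, at 2637, 1864 and 2667 in 18/3 c2, 5/4 and 8/3 c7, and at 5434 in 3/3 c11. In the RPE1 tables it stood at 1470 ppm in 5/3 12/3, 1500 ppm in 21/3 and 1018 ppm in 7/3. Again every RPE1 table was above every HCT116 table, with the nearest 1.68-fold apart, between the same pair of tables as for hsa-miR-181a-5p. The median levels were 1470 ppm in RPE1 and 338 ppm in HCT116, a log2 difference of 2.12 (4.35-fold). hsa-miR-181b-5p ranked between 21 and 29 in the RPE1 tables and between 45 and 63 in the HCT116 tables.

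hsa-miR-181c-5p, from chromosome 19, was far rarer and did not separate the cell types. It stood at 7.86 ppm in HCT116 18/3 c2, 14.6 ppm in HCT116 5/4, 11.8 ppm in HCT116* 3/3 c11 and 10.3 ppm in HCT116* 8/3 c7, against 12.1 ppm in RPE1 5/3 12/3, 14.1 ppm in RPE1* 21/3 and 3.41 ppm in RPE1* 7/3. The lowest and the next-to-highest table were both RPE1 tables, and the groups overlapped. Its medians were 12.1 ppm in RPE1 and 11 ppm in HCT116, a log2 difference of 0.13. That direction rested on the choice of scale and tables, as the difference was 1.14 when tables were scaled by the median of ratios and -0.09 when the 10 most abundant miRNAs were left out of the sum. In authors' means hsa-miR-181c-5p ran from 38.2 to 113, so its levels rest on far fewer reads than those of the other 2 members. It ranked between 136 and 185 of the listed miRNAs.

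**Figure D1:**
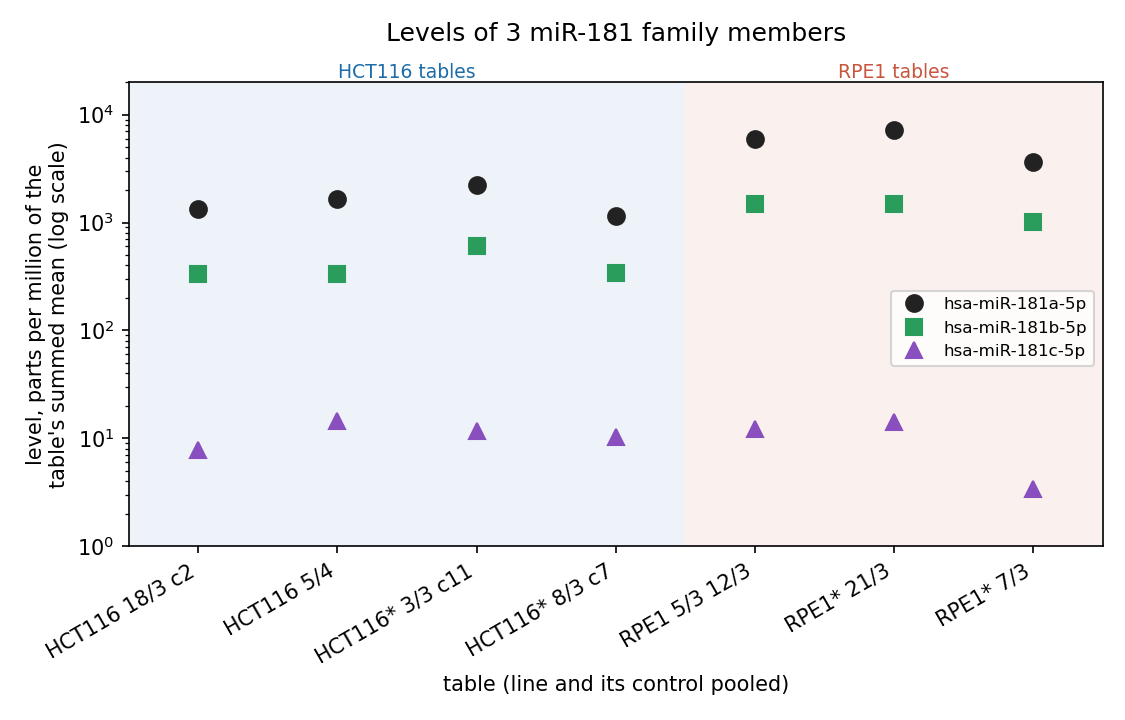
Level of each member in the 7 tables, in ppm of the table's summed mean on a log axis, with a single point per table (line and control pooled, no error available). hsa-miR-181a-5p and hsa-miR-181b-5p lie higher in all 3 RPE1 tables, while hsa-miR-181c-5p stays between 3.41 and 14.6 ppm with no separation.

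Set beside all 173 miRNAs with a mean of at least 10 in every table, the RPE1 excess of hsa-miR-181a-5p and hsa-miR-181b-5p was in the upper tail. Every RPE1 table was above every HCT116 table for 19 of the 173 miRNAs (11%), among them these 2 of the 3 members, and every RPE1 table was below for 81 (46.8%), among them none of the members. The median log2 difference of the 173 was -0.85, with quartiles of -1.98 and 0.16. A larger log2 difference than that of hsa-miR-181a-5p was found for 10 miRNAs, than that of hsa-miR-181b-5p for 9, and than that of hsa-miR-181c-5p for 45. The median of all miRNAs itself depended on the scale, from -1.19 with the 10 most abundant left out of the sum to 0.12 with the median of ratios, and the split of non-overlapping miRNAs moved with it, to 39 above and 44 below (47.0% above, against 19%). Each scale multiplies all miRNAs of a table by 1 factor, so a member's distance from that median can change little by construction. Over the 4 scales this log2 distance was 2.82 to 3.17 for hsa-miR-181a-5p, 2.85 to 2.97 for hsa-miR-181b-5p and 0.98 to 1.18 for hsa-miR-181c-5p.

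**Figure D2:**
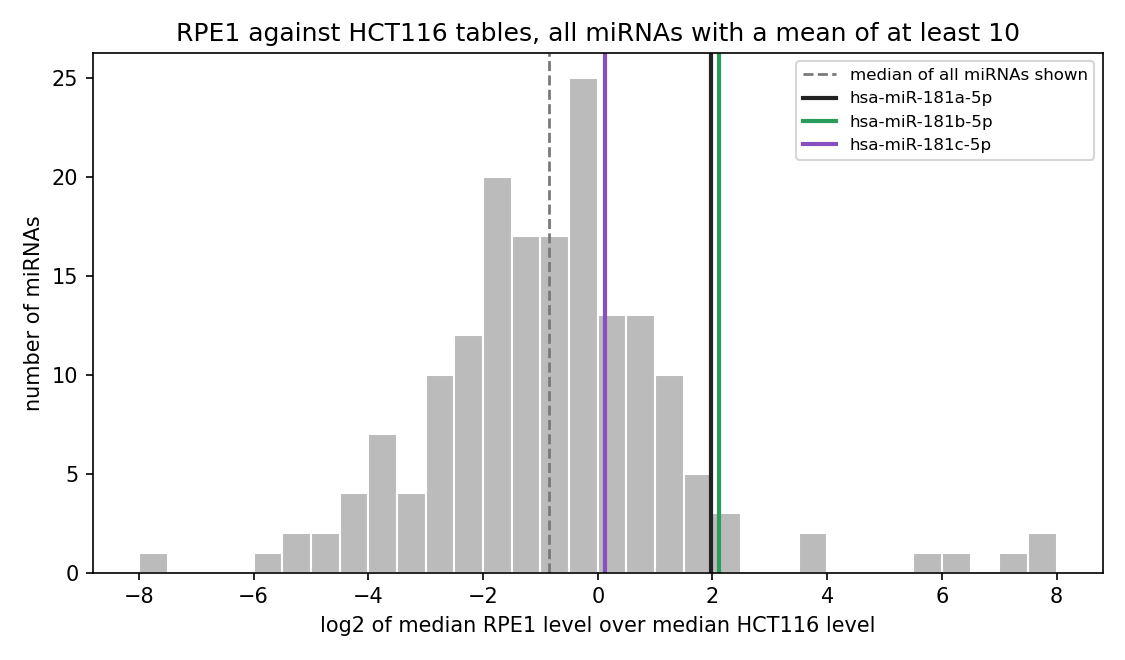
Histogram of the log2 ratio of the median RPE1 level to the median HCT116 level for 173 miRNAs, with the members as vertical lines and the median of all as a dashed line. The lines of hsa-miR-181a-5p (1.98) and hsa-miR-181b-5p (2.12) lie in the right tail, and hsa-miR-181c-5p (0.13) lies nearer to the median of -0.85.

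Ratios between members within a table do not depend on any scaling between tables. The ratio of hsa-miR-181a-5p to hsa-miR-181b-5p was 4.01 in HCT116 18/3 c2, 4.96 in HCT116 5/4, 3.67 in HCT116* 3/3 c11 and 3.36 in HCT116* 8/3 c7, and 4.02, 4.81 and 3.54 in the RPE1 tables with chromosomes 5 and 12, 21 and 7 gained. It stayed within 1.48-fold over the 7 tables although the levels of both miRNAs moved more, and the cell types overlapped, with a log2 difference of 0.07 between their medians. hsa-miR-181a-5p made up 76.5% to 82.7% of the 3 members' sum and hsa-miR-181b-5p 16.7% to 22.8%.

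The ratio of hsa-miR-181a-5p to hsa-miR-181c-5p, miRNAs 1 base apart in sequence and encoded on different chromosomes, did separate the cell types. It was 169, 114, 188 and 111 in the HCT116 tables (18/3 c2, 5/4, 3/3 c11 and 8/3 c7) and 488, 513 and 1059 in the RPE1 tables (5/3 12/3, 21/3 and 7/3). The nearest tables were 2.59-fold apart and the log2 difference between medians was 1.86. For hsa-miR-181b-5p to hsa-miR-181c-5p the ratio was 42.2, 23, 51.4 and 33.2 in the HCT116 tables and 121, 107 and 299 in the RPE1 tables, a log2 difference of 1.69 with the nearest 2.07-fold apart. The RPE1* 7/3 table set the top of both, and without either of the other 2 RPE1 tables the log2 differences reached 2.47 and 2.48. hsa-miR-181c-5p accordingly gave 0.415% to 0.724% of the members' sum in the HCT116 tables and 0.0736% to 0.164% in the RPE1 tables.

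**Figure D3:**
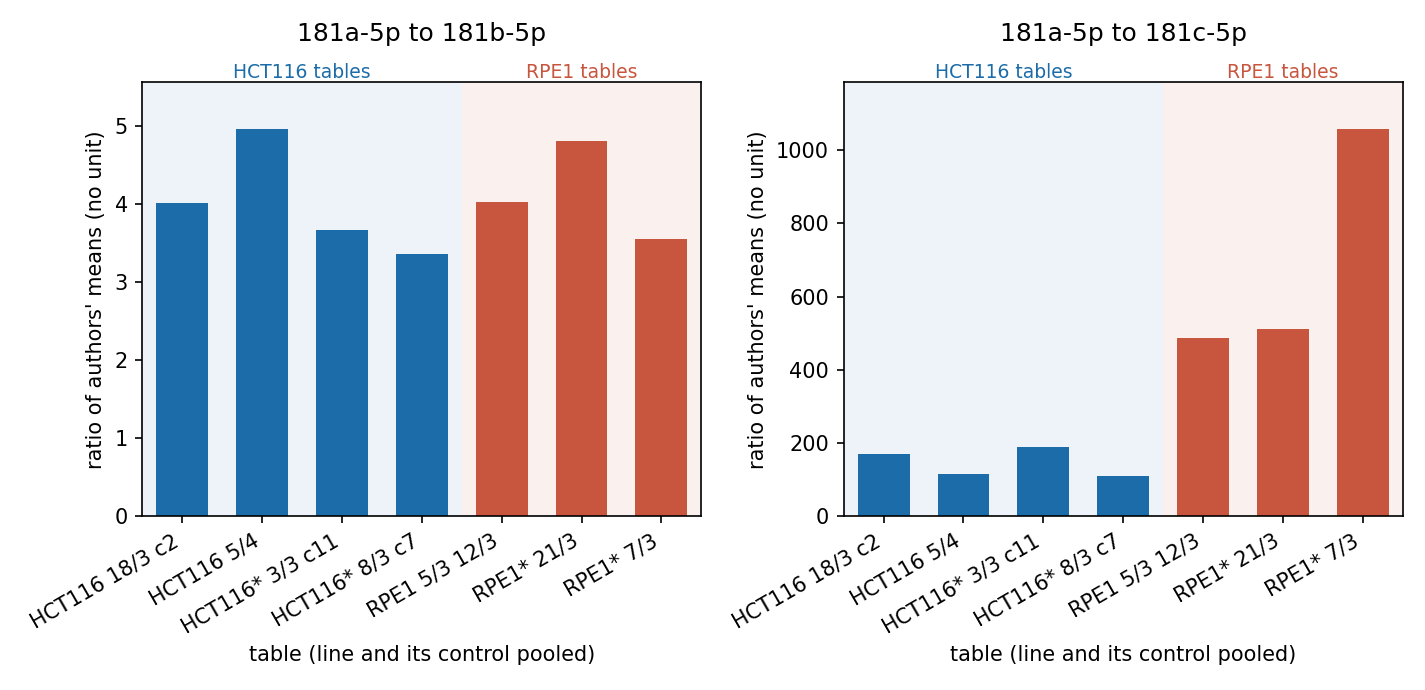
Ratio of hsa-miR-181a-5p to hsa-miR-181b-5p (left) and to hsa-miR-181c-5p (right) within each table, as bars from 0, blue for HCT116 and red for RPE1 tables, with no error available. The left bars stay between 3.36 and 4.96 in both cell types, whereas the right bars run from 111 to 188 in HCT116 and from 488 to 1059 in RPE1.

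Among the HCT116 tables, HCT116* 3/3 c11 had the highest hsa-miR-181a-5p and hsa-miR-181b-5p. By the labels this table shares its 3 control libraries with 18/3 c2 and 8/3 c7. The 3 tables still differ in more than the line libraries, as each was normalized on its own and the 3/3 c11 table lists 279 miRNAs down to a mean of 11.9, against 409 down to 2.34 in 18/3 c2 and 434 down to 2.14 in 8/3 c7. hsa-miR-181a-5p was 1.67-fold and 1.95-fold higher in 3/3 c11 than in 18/3 c2 and 8/3 c7, while those 2 tables were 1.17-fold apart. For hsa-miR-181b-5p the same values were 1.83-fold and 1.79-fold, with a 1.03-fold gap between the other 2 tables. hsa-miR-181c-5p was 1.5-fold and 1.15-fold higher, with a 1.3-fold gap between the other 2 tables, and so did not stand clear of both.

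The background was the 201 miRNAs listed in all 7 tables, RPE1 included, with a mean of at least 10 in these 3 HCT116 tables. miRNAs listed only in HCT116 tables were thus left out. Of the 201, 5 (2.49%) were at least 1.5-fold higher in 3/3 c11 than in both others. Among the 5, 2 were hsa-miR-181a-5p and hsa-miR-181b-5p. The other 3 were hsa-miR-30a-5p (11.3-fold and 25.4-fold), hsa-miR-3617-5p (4.17-fold and 2.19-fold) and hsa-miR-503-5p (2.32-fold and 1.58-fold). The smaller of the 2 folds had a median of 0.93 over the 201 miRNAs. It was larger than that of hsa-miR-181a-5p for 3 miRNAs and than that of hsa-miR-181b-5p for 2. For hsa-miR-181c-5p and hsa-miR-181d these counts were 24 and 6, so they too were in the upper part. The comparison and its limit of 1.5-fold were chosen after the values had been seen. With the sum taken without the 10 most abundant miRNAs, the smaller fold of hsa-miR-181a-5p was 1.498, just short of the limit. No miR-181 locus lies on chromosome 3, the chromosome gained in that line.

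**Figure D4:**
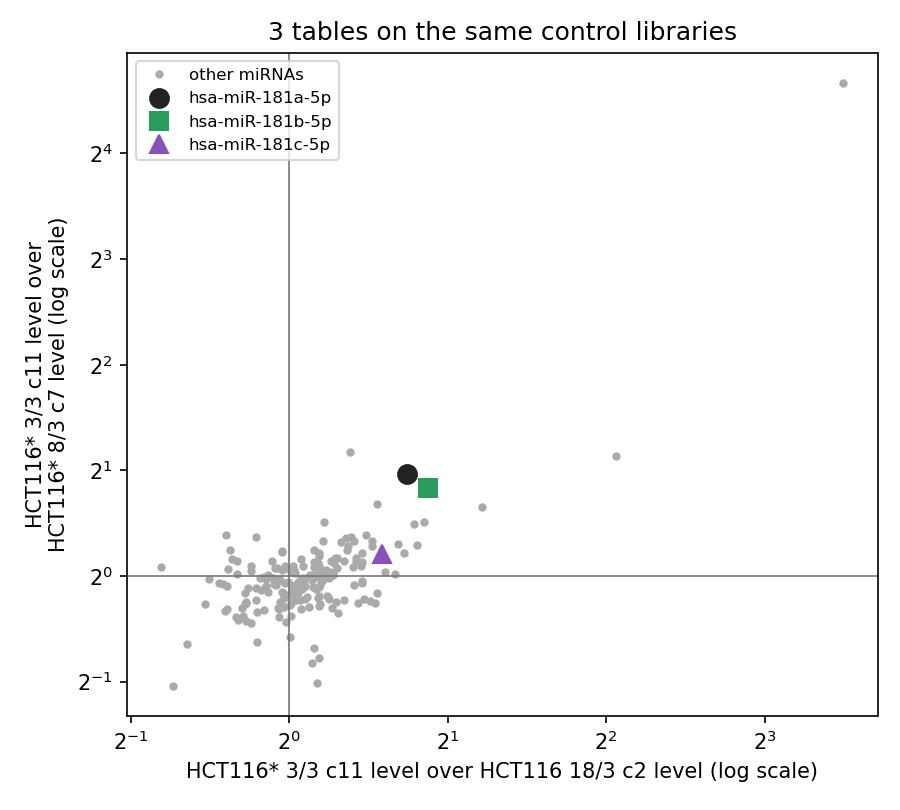
Level in the HCT116* 3/3 c11 table over that in HCT116 18/3 c2 (x axis) and in HCT116* 8/3 c7 (y axis), both on log axes, 1 point per miRNA. hsa-miR-181a-5p (1.67, 1.95) and hsa-miR-181b-5p (1.83, 1.79) lie up and to the right of most of the 201 miRNAs, and hsa-miR-181c-5p (1.5, 1.15) lies lower.

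Within the RPE1 tables all 3 members were lowest in RPE1* 7/3. How many of all miRNAs were also lowest in that table was not counted, so this cannot be called particular to the members. Any part of the spontaneous gain of chromosome 9 in that line was not tested. In ppm, hsa-miR-181a-5p was 1.64-fold and hsa-miR-181b-5p 1.44-fold below the next RPE1 table. These gaps were smaller in authors' means. There RPE1* 7/3 and the next RPE1 table stood at 40471 and 53812 for hsa-miR-181a-5p, and at 11421.5 and 12081 for hsa-miR-181b-5p. hsa-miR-181c-5p differed most, with a 4.13-fold range over the RPE1 tables, a range that 12 of 173 miRNAs exceeded, where the median range was 2.04-fold. For hsa-miR-181a-5p the range was 2.0-fold and for hsa-miR-181b-5p 1.47-fold. Within the HCT116 tables the ranges of 1.95-fold, 1.83-fold and 1.85-fold for the 3 members were close to the median of all miRNAs, 1.87-fold. The share held by hsa-miR-100-5p was largest in the RPE1* 7/3 table, 42.1% against 19.6% to 37.6% in the other 6, and its part in the lower levels there was not tested. Each table pools line and control, so none of these ranges says in which of the 2 a level differed. By the study's methods, sequencing batch was accounted for in the comparisons of HCT116 5/4 and of the RPE1 lines other than 7/3 with their controls. Those comparisons were not used here, and the means behind the levels are scaled by size factors only, in every table. The methods also give more than a single read length, without naming the libraries. Among the HCT116 tables, hsa-miR-181c-5p was highest in 5/4, whereas hsa-miR-181a-5p and hsa-miR-181b-5p were highest in 3/3 c11. Whether batch or read length had a part in differences between tables, including the low RPE1* 7/3 levels, was not tested.

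In order of level, hsa-miR-181a-5p ran from HCT116* 8/3 c7 through 18/3 c2, 5/4 and 3/3 c11 to RPE1* 7/3, then RPE1 5/3 12/3 and, highest, RPE1* 21/3, in steps of 1.17-fold to 1.64-fold. hsa-miR-181b-5p followed nearly the same order, with steps of 1.01-fold between 18/3 c2, 5/4 and 8/3 c7, of 1.79-fold up to 3/3 c11 and of 1.02-fold between the upper 2 RPE1 tables. Without library values it cannot be said which of these neighbours differ beyond replicate spread, and steps of a few percent carry no order.

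The miRNAs most like each member over the 7 tables were found by Pearson correlation of log2 level, among 98 miRNAs with a mean of at least 100 throughout. The 7 points share control libraries in 3 tables and fall into 2 cell types, so the coefficients are descriptions. hsa-miR-181a-5p and hsa-miR-181b-5p had the same 3 nearest miRNAs, hsa-let-7i-5p (0.96 and 0.97), hsa-miR-30a-5p (0.96 and 0.97) and hsa-miR-26a-5p (0.95 and 0.94), all of them higher in RPE1. Over the 4 HCT116 tables alone the coefficients with hsa-miR-181a-5p and hsa-miR-181b-5p were 0.97 and 0.80 for hsa-let-7i-5p, 0.98 and 0.91 for hsa-miR-30a-5p, and 0.69 and 0.50 for hsa-miR-26a-5p. hsa-miR-30a-5p, of a family known for limiting epithelial to mesenchymal change, stood at 149 to 3796 ppm in the HCT116 tables, highest in 3/3 c11, and at 30002 to 41959 ppm in the RPE1 tables. hsa-let-7i-5p, of the growth-restraining let-7 family, stood at 34776 to 43667 ppm and 72937 to 75438 ppm. For hsa-miR-181c-5p the nearest were hsa-miR-31-5p (0.91), hsa-miR-186-5p (0.85) and hsa-miR-30b-5p (0.85). Like hsa-miR-181c-5p, all 3 were highest in the HCT116 5/4 table and lowest in the RPE1* 7/3 table. A part of sequencing batch in this likeness was not tested. Between members the coefficient was 0.98 for hsa-miR-181a-5p with hsa-miR-181b-5p, 0.05 for hsa-miR-181a-5p with hsa-miR-181c-5p and -0.07 for hsa-miR-181b-5p with hsa-miR-181c-5p.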

How the data were processed

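Total RNA with small RNAs was sequenced from cultures of human HCT116 and RPE1 lines. Per the study's methods, adapters were removed with cutadapt, reads were mapped to hg19 and mature miRNAs were counted with mirdeep2. The authors then ran DESeq2 (version not given in the sources used here) on each line with its control. Because of sequencing batches, replicates were entered as pairs for HCT116 5/4 and for the RPE1 lines other than 7/3. The signal used here is the mean that the authors deposited per miRNA, that is, counts scaled by DESeq2's size factors and pooled over line and control (6 libraries). The remaining deposited columns hold the authors' own comparisons of line and control (fold changes, their errors, test statistics and p-values) and were not used, so no change between a line and its control is given. Library depth is not in the tables, and 0 columns were left without a sample or group.

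Means were divided by the table's sum and given per 1000000. RPE1 and HCT116 tables were compared by the log2 ratio of their medians, and miRNAs entered the background with a mean of at least 10 in every table, or of at least 100 for the search of similar miRNAs. For the comparison of HCT116* 3/3 c11, miRNAs listed in all 7 tables needed a mean of at least 10 in the 3 tables compared. Named miRNAs are the members, preset lists (relatives, chromosome 19 neighbours, pairs that share a cluster, cell type markers) and the 3 most similar miRNAs per member. Beyond this rule, hsa-miR-21-5p and hsa-miR-100-5p were named for their abundance and hsa-miR-3617-5p and hsa-miR-503-5p as members of a small count, after their values were seen. The members and lists were chosen with earlier results of these data known. No test was run, since the authors' comparisons were set aside and the means that were used are pooled. The log2 ratio and the rule for non-overlap were checked on simulated data with equal numbers of raised and lowered miRNAs. Those data were scaled by the median of ratios, so the ppm scale itself was not checked. Other scales, minima and sets of tables were tried as alternatives. Mature sequences are from RefSeq (GRCh38.p14), coordinates from GENCODE 44 on GRCh37. Python 3.11.15, numpy 2.4.6, pandas 2.3.3 and matplotlib 3.10.9 were used.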

Additional observations from a re-analysis of the deposited data

How the results depend on the processing

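Of 69 alternatives for a level or ratio between cell types, 58 stayed within 1 SD of the log2 values between tables of a cell type and 11 did not. Of 5 for the number of non-overlapping miRNAs, 4 stayed within 1.5 times, as did all 9 for the folds of HCT116* 3/3 c11. The log2 difference between RPE1 and HCT116 for hsa-miR-181a-5p (1.98) was 2.44 on the means as deposited and 2.97 with the median of ratios, and 1.67 to 2.15 with 1 table left out. For hsa-miR-181b-5p (2.12) it was 3.09 with the median of ratios, 1.66 with the 10 most abundant miRNAs left out of the sum, 1.41 in the H2B-GFP lines alone and 1.88 to 2.14 with 1 table left out. For hsa-miR-181c-5p (0.13) it was 1.14 with the median of ratios and -0.51 to 0.25 with 1 table left out, so its sign was not stable. The ratio of hsa-miR-181a-5p to hsa-miR-181b-5p (0.07) gave -0.02 to 0.20 with 1 table left out. The ratio of hsa-miR-181a-5p to hsa-miR-181c-5p (1.86) was 2.39 in the H2B-GFP lines alone and 1.60 to 2.47 with 1 table left out, and that of hsa-miR-181b-5p to hsa-miR-181c-5p (1.69) gave 1.53 to 2.48. The number of miRNAs whose RPE1 and HCT116 tables did not overlap was 100 of 173, and 57 of 100 at a mean of at least 100, where fewer miRNAs were counted. The cause of the other shifts was not tested. No paired analysis was possible because the means used pool all libraries of a table and give no library values, and for the same reason no library could be left out. Depth sets a limit that cannot be stated for hsa-miR-181c-5p, whose means were 38.2 to 113.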

Other observations

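hsa-miR-181d, encoded beside hsa-miR-181c on chromosome 19, was listed in all 7 tables and was above hsa-miR-181c-5p in each. Its level was 25.2, 24.0, 45.4 and 31.9 ppm in the HCT116 tables (18/3 c2, 5/4, 3/3 c11 and 8/3 c7) and 31.0, 35.0 and 18.4 ppm in the RPE1 tables (5/3 12/3, 21/3 and 7/3). Like hsa-miR-181c-5p it overlapped between the cell types, with a log2 difference of 0.12 between medians, and it was lowest in RPE1* 7/3. The ratio of hsa-miR-181d to hsa-miR-181c-5p ranged from 1.65 in HCT116 5/4 to 5.39 in RPE1* 7/3, a 3.27-fold range against 1.48-fold for hsa-miR-181a-5p to hsa-miR-181b-5p. In HCT116* 3/3 c11 hsa-miR-181d was 1.80-fold and 1.42-fold above the 18/3 c2 and 8/3 c7 tables. The 3p arms of the family were not listed, in tables where 12 of 509 names end in 3p.

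The ratio of hsa-miR-181a-5p to hsa-miR-181b-5p was set beside those of 13 other pairs of miRNAs that share a cluster. These members come from clusters on chromosomes 1 and 9. Whether miRNAs of the other pairs also have further loci, whose output would enter the ratio, was not examined. Its range of 1.48-fold over the 7 tables was the lowest of the 14, followed by hsa-miR-17-5p to hsa-miR-20a-5p (1.55-fold) and hsa-miR-106b-5p to hsa-miR-93-5p (1.69-fold), and the highest was hsa-miR-192-5p to hsa-miR-194-5p (14.7-fold). Pairs with low means carry more counting error, and no test was made of the order.

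On chromosome 19, MIR23A lies 38039 bases from MIR181C. hsa-miR-27a-5p of that cluster stood at 154 to 242 ppm in the HCT116 tables and 239 to 281 ppm in the RPE1 tables, and hsa-miR-24-2-5p at 205 to 249 ppm and 149 to 227 ppm. hsa-miR-23a-5p was listed in 6 tables, at 0.648 to 1.49 ppm.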
